A study of Saccharomyces cerevisiae with 24 samples.

Results

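Deletion of SNF1 in Saccharomyces cerevisiae growing on limiting ammonia was examined by comparing the 3 arrays titled snf1_N with the 3 arrays titled WT_N, across all 5449 genes measured. These are 6 of the 24 arrays of a chemostat series in which a reference strain, snf1Δ, tor1Δ and snf1Δtor1Δ were each grown on limiting glucose (C-lim) and on limiting ammonia (N-lim), with 3 arrays per group. The snf1Δ cells lacked SNF1 and kept TOR1 (the genotype label is spelled sfn1Δ on the arrays and snf1Δ in the series text), and the reference cells were labelled wild type. Both groups were kept aerobic in N-lim medium with 1 g/L ammonium sulfate, at 30 °C, pH 5.0 and a dilution rate of 0.1 per hour, and were sampled at steady state. Neither the strain background nor the way SNF1 was deleted is given in the sources used here. The series text calls the 3 arrays of a group biological replicates without saying what separates them. P-values use the spread within groups pooled over all 24 arrays, not only the 6 compared. They measure the spread between the samples of this series only. For comparison, snf1Δtor1Δ was set against tor1Δ in N-lim, and snf1Δ against the reference in C-lim. Neither of those contrasts shares an array with the main one.

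Snf1 is the catalytic subunit of the yeast AMP-activated protein kinase. It is known for relieving glucose repression: it acts on the repressor Mig1 and on activators such as Cat8, Adr1 and Sip4, and so allows the use of ethanol, glycerol, acetate and sugars other than glucose. In an ammonia-limited chemostat nitrogen sets the growth rate and glucose is usually left over, a condition in which glucose repression is known to be at work.

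Values are log2 signals as deposited. Array medians of the whole series lay between 7.79 and 7.97, and over genes the 2 N-lim groups had array-to-array r of 0.9972 to 0.9987 within a group, against 0.9838 to 0.987 between snf1Δ and WT arrays. A group mean under log2 3 is called the floor, where the arrays no longer separate levels, and 360 genes (6.61%) were at the floor in both groups. One reference array stood apart for some genes. WT array 9 was more than 1 log2 unit above both other WT arrays for 10 genes: ADH2, ATO2, FDH1, GRE1, JEN1, RGI2, SIP18, SPG4, SPS100 and YBL100W-A. ADH2, the glucose-repressed alcohol dehydrogenase, read 7.07 on WT array 9 and 2.64 and 2.76 on WT arrays 10 and 11. WT array 10 was more than 1 unit below both others for 5 genes, and no snf1Δ array stood apart by that measure.

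The deleted gene was read first. SNF1 (YDR477W, chromosome IV) was at 2.15 on all 3 snf1Δ arrays, and at 8.90, 9.05 and 8.75 on the WT arrays, at least 59.8-fold lower in snf1Δ (adjusted p = 1.22e-21, limma with Benjamini-Hochberg adjustment over all genes, used for every adjusted p here). TOR1 was present in both groups, at 7.64, 7.61 and 7.74 in snf1Δ and 7.85, 7.86 and 7.87 in the reference, a fall of -0.20 ± 0.05 (log2 ± SE, adjusted p = 0.00533).

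Of the 5449 genes, 766 (14.1%) were higher and 928 (17%) lower in snf1Δ at an adjusted p under 0.05. Together these are 1694 genes, or 31.1%, against 2215 at an unadjusted p under 0.05. Most changes were small: the median size of a called change was 0.35 log2 units, and 74 genes (1.36%) rose and 55 (1.01%) fell by at least 2-fold. For 1664 of the called genes the 3 snf1Δ values and the 3 WT values did not overlap, which was also the case for 51.2% of all genes. The median change of all genes was -0.0042, the value against which the medians of gene groups are read below. Counts of members higher and lower are likewise read against the 14.1% and 17% of all genes.

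**Figure D1:**
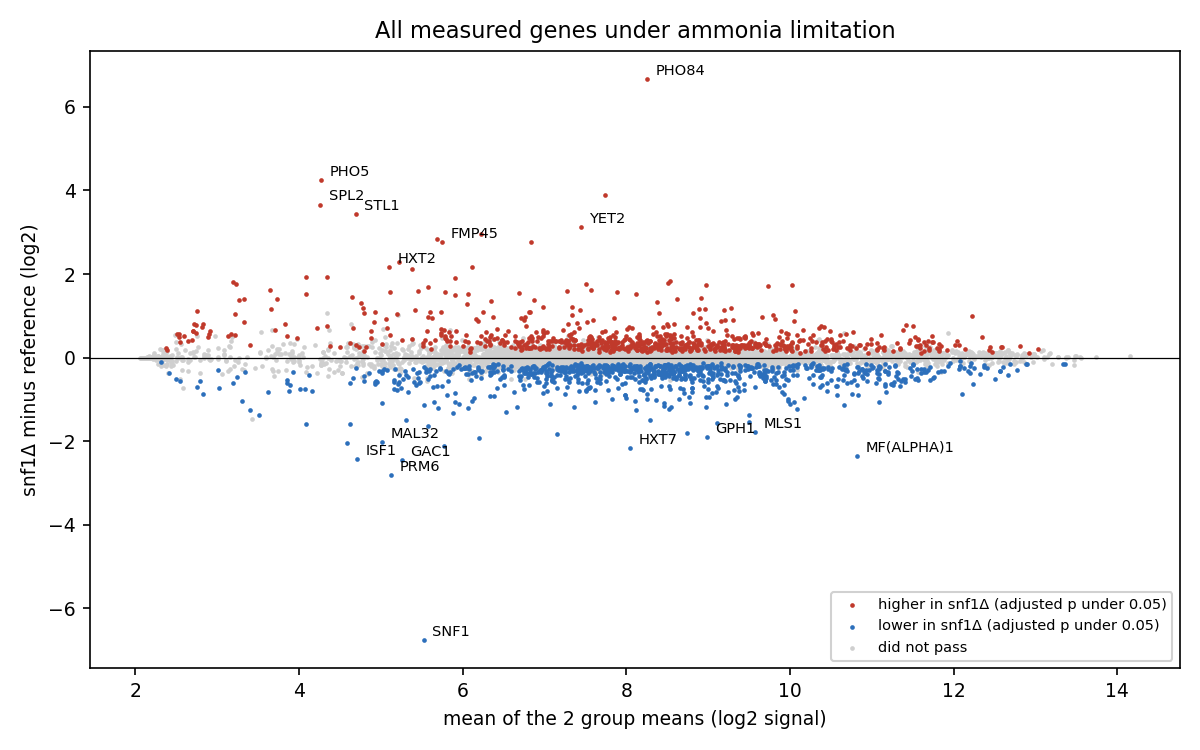
Each point is 1 of 5449 genes, with the mean of the snf1Δ and reference group means (log2 signal) on the x axis and the snf1Δ minus reference change (log2) on the y axis, red where higher, blue where lower and grey where the test was not passed. PHO84 is the highest point at 6.67 and SNF1 the lowest at -6.75, and most coloured points lie within 1 log2 unit of 0.

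The largest rise was that of PHO84 (YML123C, chromosome XIII), the high-affinity phosphate transporter, at 102-fold. It was followed by further phosphate genes and by STL1, a glycerol proton symporter of the plasma membrane, which read 6.29, 6.32 and 6.62 in snf1Δ and 2.98, 2.97 and 2.99 in the reference, at least 10.6-fold higher (adjusted p = 1.46e-09). YET2 (YMR040W), a homologue of the mammalian endoplasmic reticulum protein BAP31, read 9.0, 9.04 and 8.97 in snf1Δ and 5.84, 6.06 and 5.75 in the reference, 8.67-fold higher (adjusted p = 9.21e-10). FMP45, an eisosome-related membrane protein, read 7.13, 7.05 and 7.22 in snf1Δ against 4.62, 4.40 and 4.08 in the reference, a rise of 2.77 ± 0.27. In none of these genes did a snf1Δ array come near a WT array. YBL100W-A rose by 3.88 ± 1.09 (adjusted p = 0.0114), but its WT arrays spread widely, at 7.78, 4.53 and 5.10, and the call was lost without WT array 10 (adjusted p = 0.0592). GIP1, a phosphatase-targeting subunit known from sporulation, rose by 2.29, and DOG1, a sugar phosphatase for 2-deoxyglucose-6-phosphate, by 1.93. The rest of the 15 largest rises were PHO5, SPL2, ULI1 (2.97), PRM10, NQM1, DIA3, HXT2 and MMP1.

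The largest falls after SNF1 were PRM6 (7.05-fold), a pheromone-regulated potassium transporter, GAC1 (5.47-fold), a glycogen-targeting phosphatase subunit, ISF1 (5.42-fold), known from respiratory growth, and MF(ALPHA)1 (5.09-fold), which encodes alpha-factor. HXT7, AQY1, MAL32, GPH1, MTH1, HXT4 and MLS1 came next, together with RSB1, a sphingoid long-chain base transporter or translocase. RSB1 read 4.64, 4.47 and 5.04 in snf1Δ and 6.99, 6.74 and 6.76 in the reference, a fall of -2.11 (adjusted p = 1.4e-08). UIP4, for a protein of the endoplasmic reticulum and nuclear envelope, fell by -1.83, and YNR068C by -1.93.

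The other parts of the SNF1 kinase changed little. The gamma subunit gene SNF4 fell by -0.25 and the beta subunit gene SIP2 by -0.52 ± 0.11 (adjusted p = 0.00106), with SIP2 at 5.00, 4.98 and 5.05 in snf1Δ and 5.50, 5.63 and 5.45 in the reference. The beta subunit gene SIP1 rose by 0.22 (adjusted p = 0.0336), a call that was lost without snf1Δ array 9 or 11 or WT array 11 (0.11 and adjusted p = 0.223 without the last) and in the paired fit (adjusted p = 0.122), and GAL83 did not pass (-0.12, adjusted p = 0.094). The paired fit here and below used the 6 arrays alone with the replicate number as a block, so it differs from the reported fit in both the arrays and the block. Some calls gained in it were also gained with the 6 arrays alone and no block, such as REG1 (adjusted p = 0.0238) and HXT3 (0.00915). Of the 3 kinases that phosphorylate Snf1, TOS3 rose, SAK1 fell by -0.35 and ELM1 did not pass (-0.19, adjusted p = 0.159, or 0.0264 in the paired fit). TOS3 read 7.84, 7.97 and 8.02 in snf1Δ and 6.89, 6.73 and 6.57 in the reference, a rise of 1.21 ± 0.14 (adjusted p = 2.6e-06), with no overlap. The genes of the phosphatase that acts on Snf1, REG1 (-0.17, adjusted p = 0.105, or 0.027 in the paired fit), REG2 (0.22) and GLC7 (-0.13), did not pass.

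Of 19 transcription factors that act downstream of Snf1 or with it, 10 fell and 1 rose, with a median of -0.35. MTH1, a co-repressor of hexose transporter genes, read 4.96, 4.48 and 4.81 in snf1Δ and 6.26, 6.46 and 6.47 in the reference, 3.13-fold lower (adjusted p = 4.19e-08). MSN4, a stress-response activator, read 6.58, 6.43 and 6.53 against 7.63, 7.77 and 7.44 in the reference, a fall of -1.10 ± 0.10 (adjusted p = 1.16e-07). HAP4, the limiting activator subunit for respiratory genes, read 8.83, 8.78 and 8.89 against 9.84, 9.85 and 9.80 in the reference, a fall of -1.0 ± 0.06 (adjusted p = 2.11e-09). The snf1Δ arrays lay below the WT arrays for all 3 genes. The repressor genes MIG1 (-0.78) and MIG2 (-0.68) fell, as did USV1 (-0.76), RDS2 (-0.46), CAT8 (-0.44, adjusted p = 0.00464, or 0.051 in the paired fit, and -0.28 without snf1Δ array 9), ERT1 (-0.36) and STD1 (-0.35, adjusted p = 0.048, lost whenever any 1 of the 6 arrays was left out, with adjusted p up to 0.14, and in the paired fit among all 24 arrays, 0.0667). The repressor gene NRG2 rose by 0.29 (adjusted p = 0.00955). The paralogue of MSN4, MSN2, had a change of 0.04 (adjusted p = 0.658), ADR1 one of -0.28 (adjusted p = 0.14), and SIP4 was at the floor in both groups.

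The genes of phosphate uptake and storage held the steepest rises. In yeast, low phosphate frees the activator Pho4 from the cyclin and cyclin-dependent kinase pair Pho80 and Pho85, through the inhibitor Pho81, and Pho4 then drives transporters, secreted acid phosphatases and the enzymes that make vacuolar polyphosphate. Of the 23 measured members of the transporter, phosphatase and polyphosphate lists, 14 rose in snf1Δ and 0 fell, with a median of 0.36, against 14.1% higher among all genes.

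Among the transporters, PHO84 read 11.44, 11.61 and 11.71 in snf1Δ and 5.12, 4.56 and 5.07 in the reference, a rise of 6.67 ± 0.13 (adjusted p = 4.98e-17). PHO89, the sodium-coupled high-affinity transporter, read 5.39, 5.29 and 5.35 in snf1Δ and 4.35, 4.71 and 4.43 in the reference, a rise of 0.85 ± 0.23 (adjusted p = 0.00839). GIT1, for glycerophosphoinositol uptake, read 3.67, 4.02 and 4.41 against 3.38, 3.62 and 3.13 in the reference, a rise of 0.66 (adjusted p = 0.0143) that was lost without snf1Δ array 11 (adjusted p = 0.093) or WT array 11 (0.0774) and in the paired fit (0.076). The snf1Δ and WT values of PHO84 were far apart on every array, whereas the lowest snf1Δ value of GIT1 was close to its highest WT value. PHO86, needed to bring Pho84 out of the endoplasmic reticulum, rose by 0.23 (adjusted p = 0.0246, or 0.145 without snf1Δ array 10 and 0.136 without WT array 11). It is counted with the regulators below. The low-affinity transporters PHO90 (0.23, adjusted p = 0.0565, or 0.038 in the paired fit), PHO91 (0.12) and PHO87 (0.10) did not pass.

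Among the phosphatases, PHO5, the main secreted acid phosphatase, read 6.63, 6.21 and 6.34 in snf1Δ and lay at the floor in the reference (2.14, 2.13 and 2.15), at least 10.5-fold higher (adjusted p = 3.86e-14). DIA3, a paralogue of PHO5 named for invasive growth, read 7.18, 7.11 and 7.33 against 5.10, 4.99 and 5.00 in the reference, a rise of 2.18 ± 0.22 (adjusted p = 6.18e-07). PHO11 rose by 0.36 (adjusted p = 0.0144, or 0.0518 without snf1Δ array 9 and 0.0664 without WT array 11), and its probe set may also read its near-identical copy PHO12. The alkaline phosphatase PHO8 (-0.04), PHO3 (0.02), PHM8 (-0.12), PHO13 (0.09) and GDE1 (0.10) did not pass.

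Polyphosphate is made and stored in the vacuole by the VTC complex. Of 8 genes of its synthesis and breakdown 7 rose, with a median of 0.45. VTC3, a regulatory subunit of the complex, read 9.43, 9.62 and 9.59 in snf1Δ and 8.36, 8.43 and 8.36 in the reference, a rise of 1.16 ± 0.06 (adjusted p = 1.25e-10). VTC4, the polymerase subunit, rose by 0.47 (adjusted p = 6.28e-05), VTC1 by 0.42 and VTC2 by 0.17. PHM6 (0.63) and PHM7 (0.52), known from the phosphate response, and the endopolyphosphatase gene PPN1 (0.26) rose too, and the exopolyphosphatase gene PPX1 did not pass (0.14). Without WT array 11 the count was 4, and the calls of PHM7, PPN1 and VTC2 were lost (adjusted p = 0.137, 0.0573 and 0.185). PHM7 also lost its call without snf1Δ array 9 or 11 or WT array 9 and in the paired fit among all 24 arrays (adjusted p = 0.0548), and VTC2 without any of the 3 snf1Δ arrays or WT array 10, and in the paired fit (adjusted p = 0.057). SPL2, an inhibitor of low-affinity uptake, was counted in the transporter list. It read 5.82, 6.19 and 6.26 in snf1Δ and was at the floor in the reference (2.36, 2.30 and 2.61), at least 8.52-fold higher (adjusted p = 7.84e-09). Among 12 regulators of phosphate signalling, PHO86 (0.23), PHO81 (0.20) and VIP1 (0.17) rose, and PHO85 (-0.21) and PHO23 (-0.34) fell. PHO4 (-0.22, adjusted p = 0.467) and PHO80 (-0.20, adjusted p = 0.232, or 0.0299 in the paired fit) did not pass. The count of regulators that rose was 0 without WT array 11 and 1 without snf1Δ array 10. In the paired fit 4 of the 12 fell. The calls of PHO81 (without snf1Δ array 10 or 11 or WT array 9 or 11) and VIP1 (without WT array 11) rested on single arrays, with adjusted p up to 0.105 and 0.0812.

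**Figure D2:**
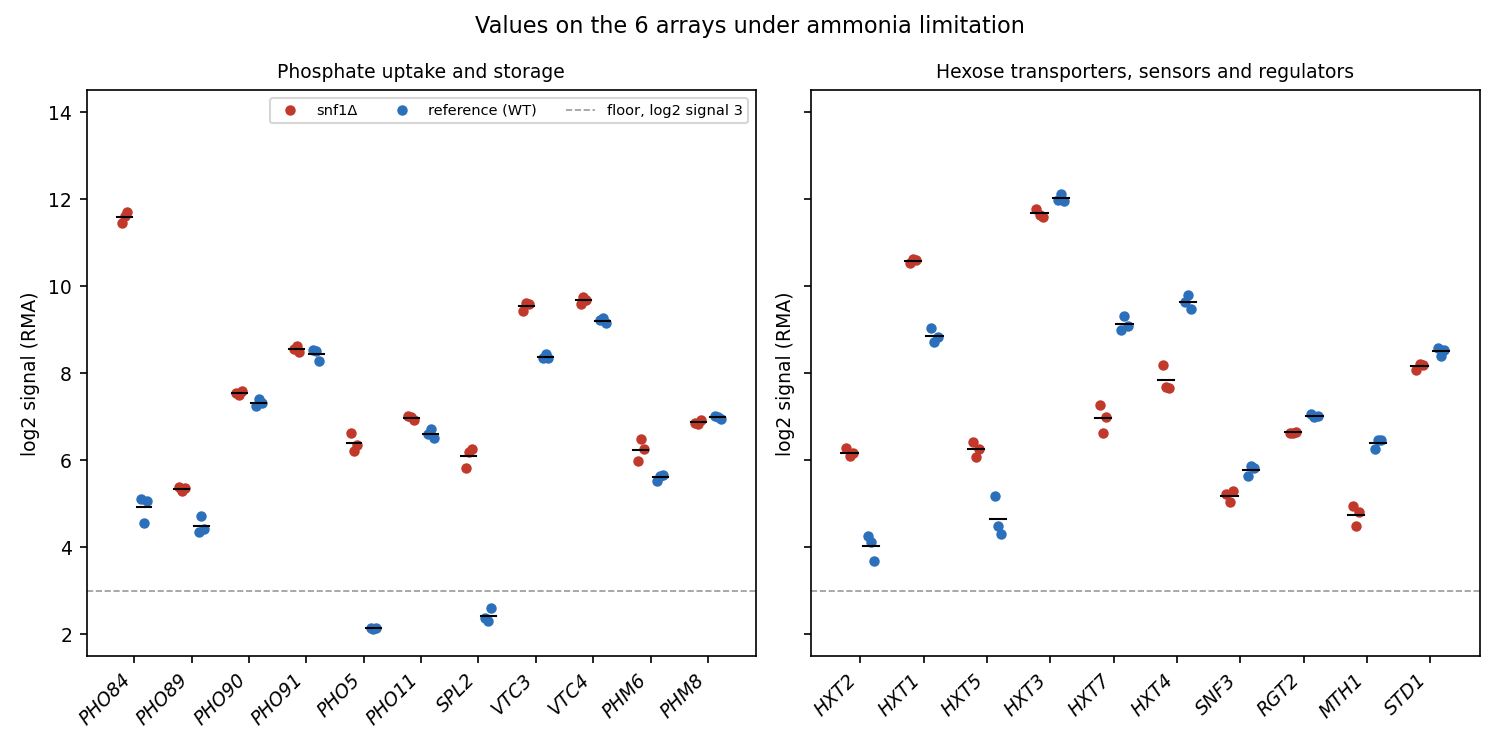
Points are log2 signals (y axis) on single arrays, snf1Δ in red to the left of the reference in blue for each gene, black bars are the means of 3 arrays, and the dashed line is the floor at log2 3. PHO84 lies between 11.44 and 11.71 in snf1Δ and between 4.56 and 5.12 in the reference, and in the right panel HXT2, HXT1 and HXT5 are higher and HXT7, HXT4 and MTH1 lower in snf1Δ.

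Genes of the respiratory chain moved together in the other direction. In yeast it consists of succinate dehydrogenase (complex II), the cytochrome bc1 complex (complex III) and cytochrome c oxidase (complex IV), fed by single-subunit NADH dehydrogenases instead of a complex I, and the proton gradient drives the ATP synthase. Of 39 measured genes for the 3 complexes and the ATP synthase, 38 were lower in snf1Δ and 1 was higher, with a median of -0.50, against 17% lower among all genes.

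All 4 subunits of succinate dehydrogenase fell. SDH2, the iron-sulfur subunit, read 9.97, 10.22 and 10.08 in snf1Δ and 11.21, 11.25 and 11.22 in the reference, 2.2-fold lower (-1.14 ± 0.07, adjusted p = 1.82e-09). The flavoprotein gene SDH1 fell by -0.75, and the membrane anchors SDH4 and SDH3 by -0.60 and -0.57. All 9 bc1 genes fell, with a median of -0.34. COR1, a core subunit, read 10.79, 10.84 and 10.89 in snf1Δ against 11.51, 11.51 and 11.43 in the reference, a fall of -0.64 ± 0.05 (adjusted p = 6.87e-09). RIP1, the Rieske protein, fell by -0.60 and the core subunit QCR2 by -0.52. Only QCR10 of this complex (-0.23, adjusted p = 0.029) had overlapping groups, and its call was lost without snf1Δ array 10 or 11 or WT array 9 or 10 (adjusted p up to 0.149), and in the paired fit (0.0546).

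All 9 cytochrome c oxidase genes fell, with a median of -0.50. COX5B, the isoform of subunit 5 known from low oxygen, read 7.24, 7.11 and 7.14 in snf1Δ against 7.87, 8.06 and 7.75 in the reference, a fall of -0.73 ± 0.11 (adjusted p = 4.32e-05). COX4 fell by -0.68, COX6 by -0.62 and COX13, the smallest fall of the complex, by -0.33. For the ATP synthase, 16 of 17 genes fell, with a median of -0.50. ATP14, a stalk subunit, read 10.54, 10.48 and 10.47 in snf1Δ against 11.17, 11.17 and 11.12 in the reference, a fall of -0.65 ± 0.06 (adjusted p = 2.53e-07). INH1, which inhibits ATP hydrolysis by the enzyme, fell by -0.69. STF2, known as a factor around that inhibitor, was the exception and rose by 0.33 (adjusted p = 0.0299), a call lost without any 1 of the arrays except WT array 9 (adjusted p up to 0.116).

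Electron entry and cytochrome c were mixed. CYC7, the cytochrome c isoform of low oxygen and stress, fell by -0.80 and NDI1, the internal NADH dehydrogenase, by -0.54 (adjusted p = 0.000952). CYC1, the main cytochrome c, did not pass (0.10, adjusted p = 0.281), nor did the external NADH dehydrogenases NDE1 (-0.22, adjusted p = 0.0565, or 0.0348 without snf1Δ array 9 and 0.0288 without WT array 11) and NDE2 (-0.38, adjusted p = 0.128). CYB2, the lactate dehydrogenase that feeds cytochrome c, rose by 0.33 (adjusted p = 0.018, or 0.0737 without snf1Δ array 11 and 0.0739 without WT array 11). Of 42 genes that assemble these complexes, 17 fell and 0 rose, with a median of -0.17. The count that fell was 21 with the 6 arrays alone, 20 in the paired fit, 12 without snf1Δ array 11 and 13 without WT array 11. Of 68 mitochondrial ribosome genes 13 fell and 1 rose, with a median of -0.08, a share near the 17% lower among all genes. Without snf1Δ array 10, snf1Δ array 11 or WT array 11, 8, 8 and 6 mitochondrial ribosome genes were lower.

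The enzymes that supply the chain fell with it. Of 13 TCA cycle genes outside succinate dehydrogenase 12 fell and 0 rose (1 in the paired fit), with a median of -0.52. CIT1, the mitochondrial citrate synthase, read 10.93, 10.94 and 10.94 in snf1Δ and 11.60, 11.57 and 11.50 in the reference, a fall of -0.62 ± 0.06 (adjusted p = 1.51e-07). IDH1, a subunit of isocitrate dehydrogenase, read 10.23, 10.31 and 10.19 against 10.86, 10.87 and 11.01 in the reference, a fall of -0.67 (adjusted p = 1.83e-06). KGD2 of 2-oxoglutarate dehydrogenase (-0.71) and MDH1, the mitochondrial malate dehydrogenase (-0.67), fell by similar amounts. Mitochondrial carrier genes were mixed: of 19, 8 fell and 3 rose, against 17% lower and 14.1% higher among all genes. The phosphate and copper carrier gene PIC2 fell by -0.88, the ADP/ATP carrier gene AAC1 by -0.81 and the oxodicarboxylate carrier gene ODC1 by -0.74. AAC3 (0.23, adjusted p = 0.0104), CTP1 (0.35, adjusted p = 0.0325) and FLX1 (adjusted p = 0.0076) rose. Each of these 3 calls was lost without at least 1 of the arrays, and that of AAC3 in the paired fit (0.106).

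Pyruvate import was an exception by isoform. The mitochondrial pyruvate carrier pairs Mpc1 with Mpc2 in fermenting cells or with Mpc3 in respiring cells. MPC3 rose in snf1Δ, to 8.68, 8.59 and 8.77, against 7.32, 6.99 and 6.98 in the reference, by 1.58 ± 0.11 (adjusted p = 5.12e-09). MPC2 rose by 0.19, a call lost without any 1 of the arrays except snf1Δ array 11 (adjusted p up to 0.114), and MPC1, chosen for mention after the values were seen, did not pass (0.14, adjusted p = 0.0915). PTC6 (-0.49) and PKP1 (-0.48), a phosphatase and a kinase of pyruvate dehydrogenase, fell.

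Regulators known from respiratory growth were lower as well, in a list of 5 chosen after their values were seen, in which all 5 fell. ISF1 read 3.33, 3.33 and 3.82 in snf1Δ and 5.99, 5.93 and 5.87 in the reference (adjusted p = 2.36e-06). RSF1, a regulator needed for growth on glycerol, read 8.21, 8.26 and 8.22 in snf1Δ and 9.20, 9.27 and 9.49 in the reference, a fall of -1.09 (adjusted p = 1.51e-08). With HAP4 at -1.0 and RSF2 at -0.70, no snf1Δ array reached the lowest WT array for these genes. MBR1, the paralogue of ISF1, was at the floor in snf1Δ and at least 1.08-fold lower.

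**Figure D3:**
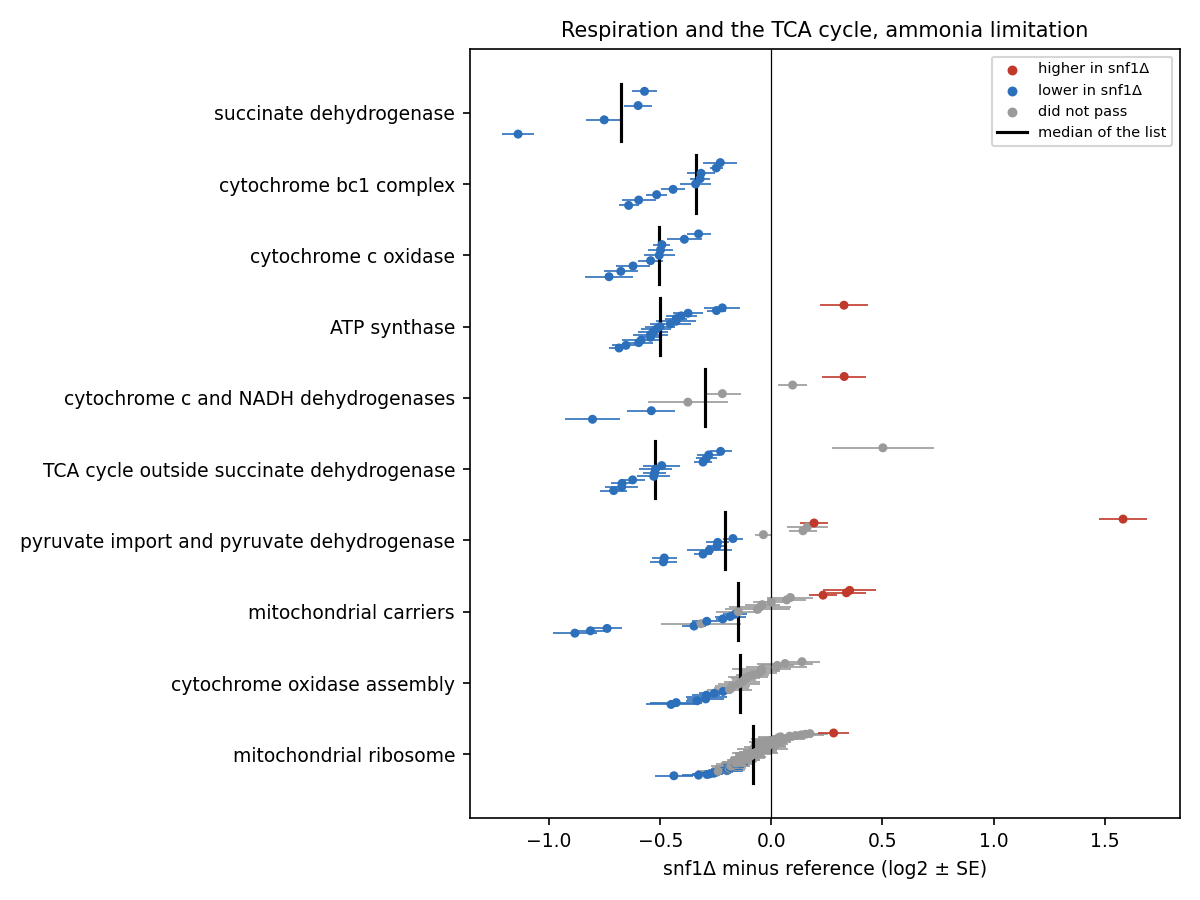
Points are snf1Δ minus reference changes (log2, x axis, bars are SE) of the genes in 10 groups of respiration and mitochondrial metabolism, blue where lower, red where higher and grey where the test was not passed, with the median of each group as a black bar. The 4 upper groups hold 38 blue points and 1 red point (STF2 at 0.33), while most mitochondrial ribosome genes lie near 0.

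Transcripts of different glucose transporters moved in opposite directions. Yeast carries a family of hexose transporters, of which HXT1 and HXT3 are known as low-affinity, HXT2 as high-to-moderate-affinity and HXT6 and HXT7 as high-affinity carriers, with SNF3 and RGT2 as glucose sensors and MTH1 and STD1 as co-repressors. Of the 17 genes measured in this group, 3 rose, 4 fell and 8 were at the floor in both groups. HXT2 read 6.28, 6.09 and 6.17 in snf1Δ and 4.26, 4.11 and 3.68 in the reference, 4.47-fold higher (adjusted p = 3.26e-06). HXT1 read 10.54, 10.62 and 10.61 in snf1Δ and 9.05, 8.72 and 8.83 in the reference, 3.3-fold higher (adjusted p = 4.16e-09). HXT5, a transporter known from slow growth, read 6.41, 6.08 and 6.26 against 5.18, 4.49 and 4.32 in the reference, 3.02-fold higher (adjusted p = 0.00299). These 3 were separated from the reference on every array.

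HXT7 read 7.28, 6.62 and 7.0 in snf1Δ and 9.0, 9.32 and 9.09 in the reference, 4.51-fold lower (adjusted p = 6.87e-09). Its nearly identical neighbour HXT6 was not analysed here, so the HXT7 signal may include HXT6. HXT4 read 8.19, 7.68 and 7.66 in snf1Δ and 9.64, 9.79 and 9.49 in the reference, 3.47-fold lower (adjusted p = 1.23e-05). The sensor genes SNF3 (-0.59, adjusted p = 0.000541) and RGT2 (-0.39, adjusted p = 0.00327) fell, and HXT3 did not pass (-0.35, adjusted p = 0.185, or 0.0174 in the paired fit). Downstream of uptake, HXK1, the hexokinase known as glucose-repressed, read 9.53, 9.50 and 9.34 in snf1Δ and 10.48, 10.56 and 10.45 in the reference, a fall of -1.04 (adjusted p = 7.84e-09). Over the 29 genes of glycolysis and ethanol formation 3 rose and 4 fell, with a median of 0.01.

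The maltose genes, which are repressed by glucose, were lower in snf1Δ, with 0 of 10 genes of maltose and sucrose use higher and 4 lower. With the 6 arrays alone 7 were lower, both without the block and in the paired fit. MAL32, a maltase, read 3.94, 3.96 and 4.12 in snf1Δ and 6.17, 6.22 and 5.70 in the reference, 4.06-fold lower (adjusted p = 2.97e-06). The maltose permease genes MAL11 (-1.58) and MAL31 (-1.22) and the activator gene MAL13 (-0.55, adjusted p = 0.0429) fell as well, the last losing its call without snf1Δ array 9 or 11 or WT array 9 or 10 (adjusted p up to 0.181). MAL genes have near-identical copies, so the signal of a single copy is uncertain.

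Glycogen genes fell in both directions of the pathway. Of 14 genes, 10 were lower and 0 higher, with a median of -0.64. GAC1, which targets the Glc7 phosphatase to glycogen synthase, read 4.08, 3.89 and 4.12 in snf1Δ and 6.36, 6.70 and 6.38 in the reference (adjusted p = 1.59e-09). GPH1, glycogen phosphorylase, which breaks glycogen down, read 8.23, 7.94 and 7.97 in snf1Δ and 9.83, 10.13 and 9.85 in the reference, 3.71-fold lower (adjusted p = 9.17e-09). Synthesis was represented by the primer gene GLG1 (-0.89), the synthase gene GSY1 (-0.69) and the branching enzyme gene GLC3 (-0.58), and the regulators GIP2, IGD1 and PIG2 fell by between -0.79 and -0.73. Trehalose genes moved less: NTH2, a neutral trehalase paralogue, fell by -0.73, UGP1, which makes the shared precursor UDP-glucose, by -0.32, and PGM1 rose by 0.36 (adjusted p = 0.058 without WT array 11). Of the 10 trehalose genes 2 fell and 1 rose, and 4 fell with the 6 arrays alone, both without the block and in the paired fit.

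A set of genes for protein folding and transport in the endoplasmic reticulum (ER) was higher in snf1Δ. Proteins enter the ER through the Sec61 channel, are folded by the Hsp70 Kar2 with its J-domain and exchange-factor partners and by disulfide isomerases, receive N-linked glycans, O-linked mannose or a GPI anchor, and leave in COPII vesicles or are sent back for degradation. The ER lists were written after the large rises of single members had been seen, so their counts describe and do not test. Of 147 genes in 7 such lists 83 rose and 6 fell, with a median of 0.23.

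In the folding and disulfide list 14 of 19 genes rose and 1 fell, with a median of 0.70. KAR2 read 12.63, 12.78 and 12.74 in snf1Δ and 11.75, 11.64 and 11.77 in the reference, a rise of 1.00 ± 0.05 (adjusted p = 2.31e-10). Its nucleotide exchange factor SIL1 read 9.80, 9.82 and 9.91 in snf1Δ and 8.14, 8.11 and 8.07 in the reference, 3.34-fold higher (adjusted p = 3.5e-11). ERO1, the oxidase that feeds disulfide formation, read 10.91, 10.78 and 10.97 in snf1Δ and 9.31, 9.0 and 9.17 in the reference, 3.32-fold higher (adjusted p = 2.81e-08). All 3 were clear of the WT arrays. The disulfide isomerase genes EUG1 (1.62) and MPD1 (1.34), the second exchange factor gene LHS1 (1.40) and the genes of the J-domain partners JEM1 (1.38) and SCJ1 (0.91) rose. ERV2, a flavin oxidase of the ER, was the member that fell (-0.21, with adjusted p = 0.065 without snf1Δ array 11, 0.083 without WT array 11 and 0.0645 in the paired fit).

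The rise extended along the route. In translocation 11 of 21 genes rose and 1 fell, among them SEC63 (0.72), SEC62 (0.59) and SEC61 (0.50, adjusted p = 4.61e-06). In GPI anchor synthesis 10 of 22 rose and 2 fell. MCD4, an ethanolamine phosphate transferase of that pathway, read 9.46, 9.36 and 9.54 in snf1Δ and 7.70, 7.69 and 7.46 in the reference, a rise of 1.84 ± 0.08 (adjusted p = 1.3e-11), the largest of the 7 lists. In O-mannosylation 5 of 8 rose and 0 fell, with the mannosyltransferase genes PMT3 (1.01), PMT1 (0.89) and PMT2 (0.73) in front. In N-glycosylation 16 of 26 rose and 0 fell, among them the dolichol genes NUS1 (0.72) and SEC59 (0.61) and ALG7 (0.57), which starts the glycan. In vesicle traffic between ER and Golgi 20 of 34 rose and 0 fell, with the COPII component SFB2 (0.81), the HDEL receptor ERD2 (0.71) and the cargo receptor ERV29 (0.71) highest. In ER-associated degradation 7 of 17 rose, led by DER1 (0.74) and DFM1 (0.67), and UBC6 (-0.49) and PNG1 (-0.26) fell (for PNG1, adjusted p = 0.0732 without snf1Δ array 9 and 0.106 without WT array 11).

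The unfolded protein response, in which Ire1 splices the HAC1 transcript, is the known common activator of many of these genes. HAC1 read 11.95, 12.02 and 12 in snf1Δ and 11.60, 11.51 and 11.33 in the reference, a rise of 0.51 ± 0.08 (adjusted p = 0.00016). IRE1 (0.09, adjusted p = 0.374) and the ligase gene TRL1 (-0.02) did not pass, and PTC2, a phosphatase that acts on Ire1, fell by -0.17 (adjusted p = 0.0481, up to 0.161 and lost whenever any 1 of the 6 arrays was left out, and 0.0633 in the paired fit among all 24 arrays). Splicing cannot be read from these values. Of 23 cytosolic chaperone genes, also listed after values were seen, 5 rose and 0 fell: BTN2 (1.02), SSE1 (0.44), CPR6 (0.37), SSA2 (0.25) and FES1 (0.23, with adjusted p = 0.0741 without snf1Δ array 10 and 0.0602 without WT array 10). In the paired fit 3 of the 23 fell.

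**Figure D4:**
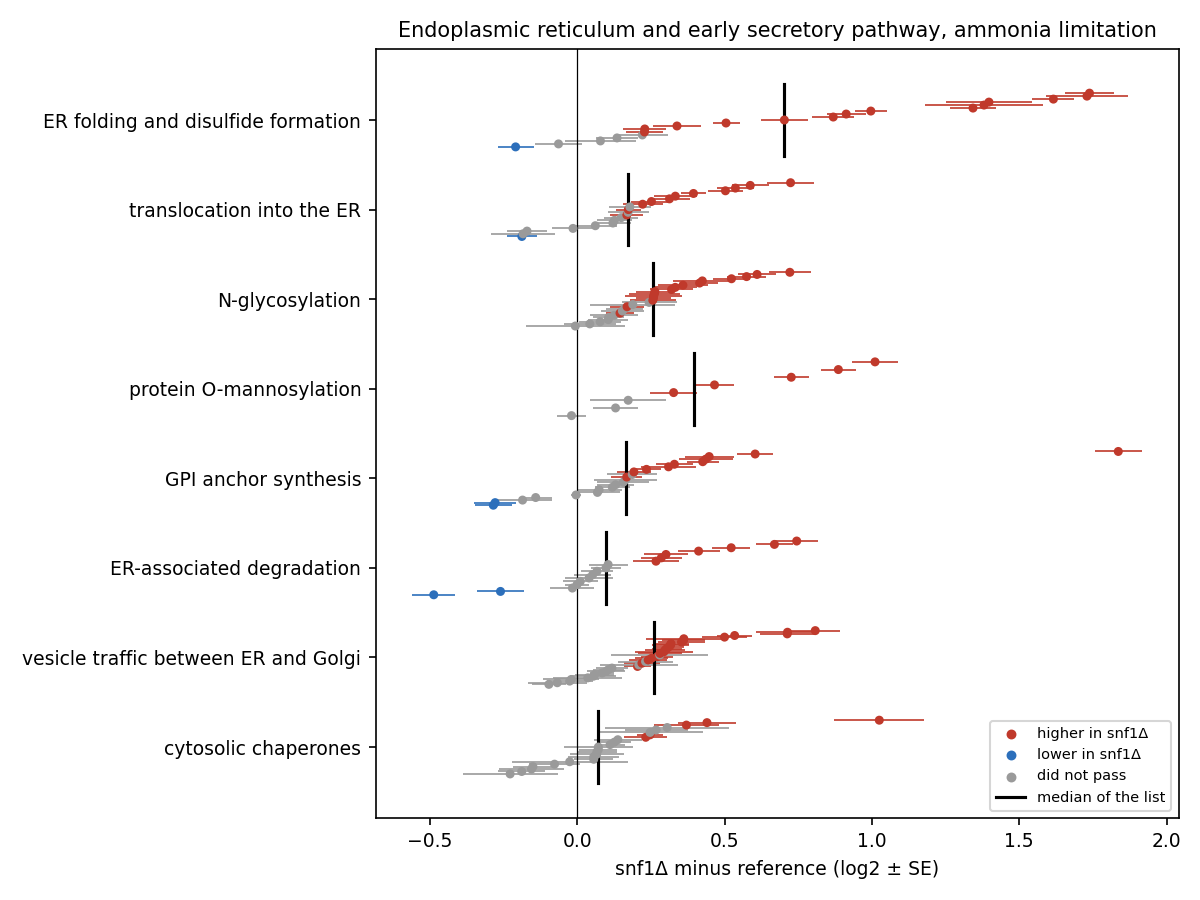
Points are snf1Δ minus reference changes (log2, x axis, bars are SE) of genes in 7 groups of the ER and early secretory pathway and in cytosolic chaperones, red where higher, blue where lower and grey where the test was not passed, with the median of each group as a black bar. The median of the folding group is 0.70, those of the other ER groups lie nearer to 0, and that of the cytosolic chaperones is 0.07.

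Genes of alternative carbon use, the best-known Snf1 targets, showed limited changes in N-lim. Of 26 targets of Cat8 and Adr1, 8 fell and 0 rose, with a median of -0.31, and 6 were at the floor in both groups. MLS1, malate synthase of the glyoxylate cycle, read 8.77, 8.70 and 8.58 in snf1Δ and 10.47, 10.59 and 10.35 in the reference, a fall of -1.79 ± 0.15 (adjusted p = 3.91e-08). MDH2, cytosolic malate dehydrogenase (-0.99), ACH1, for acetyl-CoA and succinyl-CoA transfer (-0.71), CAT2, carnitine acetyltransferase (-0.66), GUT2, mitochondrial glycerol-3-phosphate dehydrogenase (-0.63), and RGI1 (-0.41) fell. JEN1, the lactate and pyruvate permease, fell by -1.59 ± 0.29 (adjusted p = 0.000334), but its WT arrays read 5.79, 4.76 and 4.10 against 3.34, 3.19 and 3.34 in snf1Δ, and without WT array 9 the fall was -1.14 (adjusted p = 0.000789). ALD4, mitochondrial aldehyde dehydrogenase, fell by -0.57 (adjusted p = 0.0203), a call lost without snf1Δ array 10 (0.0624) or WT array 9 (0.0749). WT array 9 was the highest of the WT arrays for 15 of the 26.

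Stress genes changed in both directions. Of 44 targets of Msn2 and Msn4, 14 fell and 8 rose, with a median of -0.18, against 17% lower and 14.1% higher among all genes. The share that rose was near that of all genes. MOH1 (-1.0), the repressor gene XBP1 (-0.92), DDR2 (-0.89), and the mitochondrial outer-membrane gene OM45 (-0.88) fell besides HXK1 and CYC7. CTT1, cytosolic catalase, went the other way, with 7.97, 8.12 and 8.11 in snf1Δ and 6.49, 6.63 and 6.31 in the reference, a rise of 1.59 ± 0.20 (adjusted p = 5.93e-06). ALD3, an aldehyde dehydrogenase, rose by 1.18. GRE1, a stress-induced hydrophilin, did not pass (1.03, adjusted p = 0.122). WT array 9 read 6.35 for it and the other WT arrays 3.87 and 3.87, and without WT array 9 the rise was 1.86 (adjusted p = 0.000473). SPS100 rose by 1.09 (adjusted p = 0.0039), and by 1.48 without WT array 9.

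Some genes of the pentose phosphate pathway and of glycerol synthesis rose. In the pentose phosphate pathway 5 of 11 genes rose and 0 fell (2 in the paired fit), with a median of 0.27. NQM1, a transaldolase paralogue, read 8.20, 8.20 and 8.26 in snf1Δ and 5.67, 5.42 and 5.27 in the reference, 6.82-fold higher (adjusted p = 1.45e-08). TKL2, a transketolase isoform, rose by 1.53, SOL3, 6-phosphogluconolactonase, by 0.54, TAL1, the main transaldolase, by 0.27 and ZWF1, glucose-6-phosphate dehydrogenase, by 0.30 (adjusted p = 0.0613 without snf1Δ array 9 and 0.0931 without WT array 11). For glycerol, the synthesis genes GPD1 (0.65), GPP1 (0.77) and GPP2 rose with STL1. GPP2, glycerol-3-phosphatase, read 10.51, 10.67 and 10.66 in snf1Δ and 9.51, 9.46 and 9.53 in the reference, a rise of 1.11 (adjusted p = 3.48e-07). AQY1, a spore-associated water channel, fell, to 3.27, 3.65 and 3.77 in snf1Δ, against 5.49, 5.77 and 5.55 in the reference (-2.04, adjusted p = 0.000586).

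Nitrogen genes, whose nutrient was limiting, changed in both directions. Of 32 targets of nitrogen catabolite repression, which GATA factors switch on when good nitrogen sources run out, 15 fell and 6 rose, with a median of -0.16. Among all genes 17% were lower and 14.1% higher. DUR3, the urea and polyamine transporter, read 8.01, 7.83 and 7.88 in snf1Δ and 9.0, 9.32 and 9.08 in the reference, a fall of -1.22 (adjusted p = 1.47e-05). The peptide transporter genes OPT1 (-1.04), PTR2 (-0.79) and OPT2 (-0.62) and the repressor gene DAL80 (-0.57) fell. CAR1, arginase, went up, with 9.23, 9.57 and 9.40 in snf1Δ and 7.58, 7.55 and 7.70 in the reference, a rise of 1.79 ± 0.10 (adjusted p = 1.66e-10). UGA4, the GABA permease, rose by 1.51, MEP1, an ammonium permease, by 0.60 and DAL3, of allantoin breakdown, by 0.59. In ammonium assimilation, GDH3, the glutamate dehydrogenase isoform known from non-fermentable growth, read 5.14, 5.25 and 5.26 in snf1Δ and 6.40, 6.63 and 6.61 in the reference, a fall of -1.33 (adjusted p = 3.81e-07). GLT1, glutamate synthase, fell by -0.38, and GDH1, the main glutamate dehydrogenase, did not pass (-0.01).

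Amino acid permease genes also moved in both directions, with 4 of 20 higher and 8 lower, against 14.1% and 17% of all genes. AGP1, a broad-range permease, read 7.62, 7.52 and 7.50 in snf1Δ and 8.93, 9.13 and 9.06 in the reference, a fall of -1.49 (adjusted p = 1.75e-08). HIP1, the histidine permease, read 6.89, 6.85 and 6.82 in snf1Δ and 5.04, 5.04 and 4.79 in the reference, a rise of 1.90 (adjusted p = 2.57e-09). MMP1, for S-methylmethionine, read 6.56, 6.39 and 6.35 against 4.34, 4.34 and 4.26 in the reference, a rise of 2.12. The glutamine permease gene GNP1 was at least 2.17-fold higher and the tryptophan and tyrosine permease gene TAT2 rose by 0.98, and AGP2 (-0.81) fell. The count of lower genes was 5 without snf1Δ array 10, WT array 9 or WT array 10.

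Autophagy recycles cell material and has been linked to Snf1 in yeast. Of 33 autophagy genes 16 fell and 4 rose, with a median of -0.21. ATG39, a receptor for autophagy of the nucleus, read 7.68, 7.47 and 7.32 in snf1Δ and 8.68, 8.89 and 8.68 in the reference, a fall of -1.26 (adjusted p = 2.58e-06). ATG34 (-0.70), a receptor for selective transport, ATG14 (-0.58) of the lipid kinase complex, and the core genes ATG8 (-0.43) and ATG1 (-0.43), chosen for mention after the values were seen, fell. The 4 that rose were ATG41 (0.90), ATG17 (0.53), ATG5 (0.51) and ATG27 (0.15). The call of ATG17 was lost without snf1Δ array 10 or 11 or WT array 10 (adjusted p up to 0.158) and in the paired fit (0.089).

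Some genes of mating fell and a few rose. Haploid yeast of mating type a express the alpha-factor receptor STE2 and a-factor, those of type alpha express alpha-factor, and a pheromone cascade ending in Ste12 induces fusion genes. As a check of the cells, STE2, MFA1, MFA2, STE6, BAR1 and AGA2 of the a-specific genes had means of at least 10.66 log2 in both groups, and of the alpha-specific genes MF(ALPHA)2 was at the floor in both and STE3 at 5.37 in snf1Δ and 5.02 in the reference (adjusted p = 0.0712, or 0.012 in the paired fit). MF(ALPHA)1, an alpha-specific gene, nevertheless gave strong signals. It read 9.95, 9.55 and 9.44 in snf1Δ and 11.90, 12.01 and 12.07 in the reference, 5.09-fold lower (adjusted p = 2.77e-09). SAG1, the alpha-specific agglutinin gene, was above the floor as well. It read 6.74, 6.67 and 6.74 in snf1Δ and 7.30, 7.37 and 7.32 in the reference, a fall of -0.61. The a-specific list of 9 genes also holds RAM1 and STE14, which are not a-specific. Of these 9 genes 5 fell: AGA2, ASG7 (-0.78), MFA2 (-0.33), RAM1 (-0.22) and STE2 (-0.19). AGA2, an a-agglutinin subunit, read 10.86, 10.66 and 10.75 against 11.52, 11.65 and 11.60 in the reference (-0.83, adjusted p = 1.04e-07). The call of RAM1 was lost without snf1Δ array 11 (adjusted p = 0.0559), and that of STE2 without snf1Δ array 9 or 11 or WT array 9 or 11 (adjusted p up to 0.14) and in the paired fit (0.0567). MFA1 (-0.17, adjusted p = 0.108, or 0.0235 in the paired fit), STE6, BAR1 and STE14 did not pass.

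Of 33 pheromone-response genes 14 fell and 2 rose, with a median of -0.22. PRM6 read 4.02, 3.58 and 3.54 in snf1Δ and 6.35, 6.72 and 6.53 in the reference, a fall of -2.82 ± 0.12 (adjusted p = 9.12e-12). AGA1, the anchor of a-agglutinin (-1.11), and FIG1 (-1.11) and FIG2 (-1.09), both known from mating projections, fell. PRM10, a membrane protein gene, rose, with 7.16, 6.99 and 7.17 in snf1Δ and 4.35, 4.38 and 4.06 in the reference (2.84, adjusted p = 6.57e-11), and PRM5, known from both pheromone and cell wall signalling, rose by 0.82.

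Some genes of ribosome production rose. Of 91 ribosome biogenesis genes 39 rose and 0 fell, with a median of 0.29, against 14.1% higher among all genes. The count was 55 with the 6 arrays alone, 70 in the paired fit and 37 in the paired fit among all 24 arrays. DRS1, a helicase of the large subunit (0.65), and NOG1, a GTPase of the large subunit (0.56), were among the highest. Without snf1Δ array 11 or without WT array 10, 23 rose. Of 21 subunit and factor genes for RNA polymerases I and III 10 rose and 0 fell (1 in the paired fit), but 4 without snf1Δ array 11, 5 without WT array 10 and 6 without WT array 11. Of 127 cytosolic ribosomal protein genes 7 rose and 0 fell (22 and 1 with the 6 arrays alone, 16 and 1 in the paired fit, and 1 rose without snf1Δ array 9 or without WT array 11), with a median of 0.10. In the reported fit the share of ribosomal protein genes that rose was below the 14.1% of all genes. Of 47 amino acid synthesis targets of Gcn4, 14 rose and 4 fell, led by LYS20, homocitrate synthase (0.75), and 9 rose without snf1Δ array 10, snf1Δ array 11 or WT array 10. GCN4 itself had overlapping groups and a fall of -0.15 (adjusted p = 0.0495) that was lost without any 1 of the arrays except WT array 11 (adjusted p up to 0.227; the fall was -0.23 without WT array 11) and in the paired fit (0.129). Of 33 proteasome genes 1 rose (0 in the paired fit) and 1 fell.

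Whether the loss of Snf1 had the same effect without Tor1 was read from 6 other arrays. In N-lim, snf1Δtor1Δ differed from tor1Δ at 1828 genes (33.5%), 1183 (21.7%) higher and 645 (11.8%) lower. Of the genes higher in snf1Δ, 595 were also higher in snf1Δtor1Δ, which is 77.7% of the first list and 50.3% of the second. Of the genes lower in snf1Δ, 508 were also lower in snf1Δtor1Δ, 54.7% and 78.8%. Among 5089 genes above the floor, the deleted gene SNF1 included, the changes correlated with r = 0.873 (across genes, which are not independent). Of the 39 respiratory genes 37 were lower and 1 was higher in snf1Δtor1Δ against tor1Δ, and of the 147 ER and secretory genes 102 were higher and 4 lower.

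A test of the difference between the effects passed at 38 genes (0.697%), with the effect larger or less negative without TOR1 at 32 (0.587%) and the reverse at 6 (0.11%). With the arrays centred on their medians the counts were 10 and 9, and 11 and 7 after a further quantile normalization. Without dim genes they were 2 and 2, and in the paired fit among all 24 arrays 20 and 6. The count of 32 was 11 without snf1Δ array 10, 20 without snf1Δ array 9, 15 without WT array 10 and 18 without WT array 11. SPL2 read 3.24, 3.17 and 3.10 in snf1Δtor1Δ, just above the floor, and was at the floor in tor1Δ (2.37, 2.33 and 2.30), as it was in the reference. Its difference passed the test (adjusted p = 0.0006) but has no exact size, since both tor1Δ and the reference lay at the floor. PHO84 read 10.81, 10.73 and 10.95 in snf1Δtor1Δ and 5.97, 6.15 and 6.34 in tor1Δ, an effect of 4.68 against 6.67 (difference -1.99, adjusted p = 1.4e-05). PHO84 still rose without TOR1. RSB1 fell further without TOR1, to the floor (3.01, 3.04 and 2.75) in snf1Δtor1Δ, against 7.21, 6.35 and 6.55 in tor1Δ, at least 13-fold lower, against a fall of -2.11 on the log2 scale with TOR1. HXK1 (difference -0.47) and OPT2 (-0.83) also fell further.

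Mating genes were also among those with differences: 8 of the 33 pheromone-response genes passed this test in the reported fit. Whether these 8 also passed in the alternative runs given above was not examined. PRM6 read 4.58, 4.77 and 4.61 in snf1Δtor1Δ and 5.53, 6.04 and 5.86 in tor1Δ, an effect of -1.16 against -2.82 (difference 1.66, adjusted p = 2.6e-05). PRM5 read 8.50, 8.36 and 8.35 in snf1Δtor1Δ and 6.80, 6.15 and 6.23 in tor1Δ, an effect of 2.01 against 0.82. In FIG1 the fall was smaller without TOR1 by 0.96. Outside mating, YPL113C had an effect of 1.47 without TOR1 and 0.25 with it (difference 1.22), the second not past the threshold (adjusted p = 0.109, or 0.0478 in the paired fit).

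**Figure D5:**
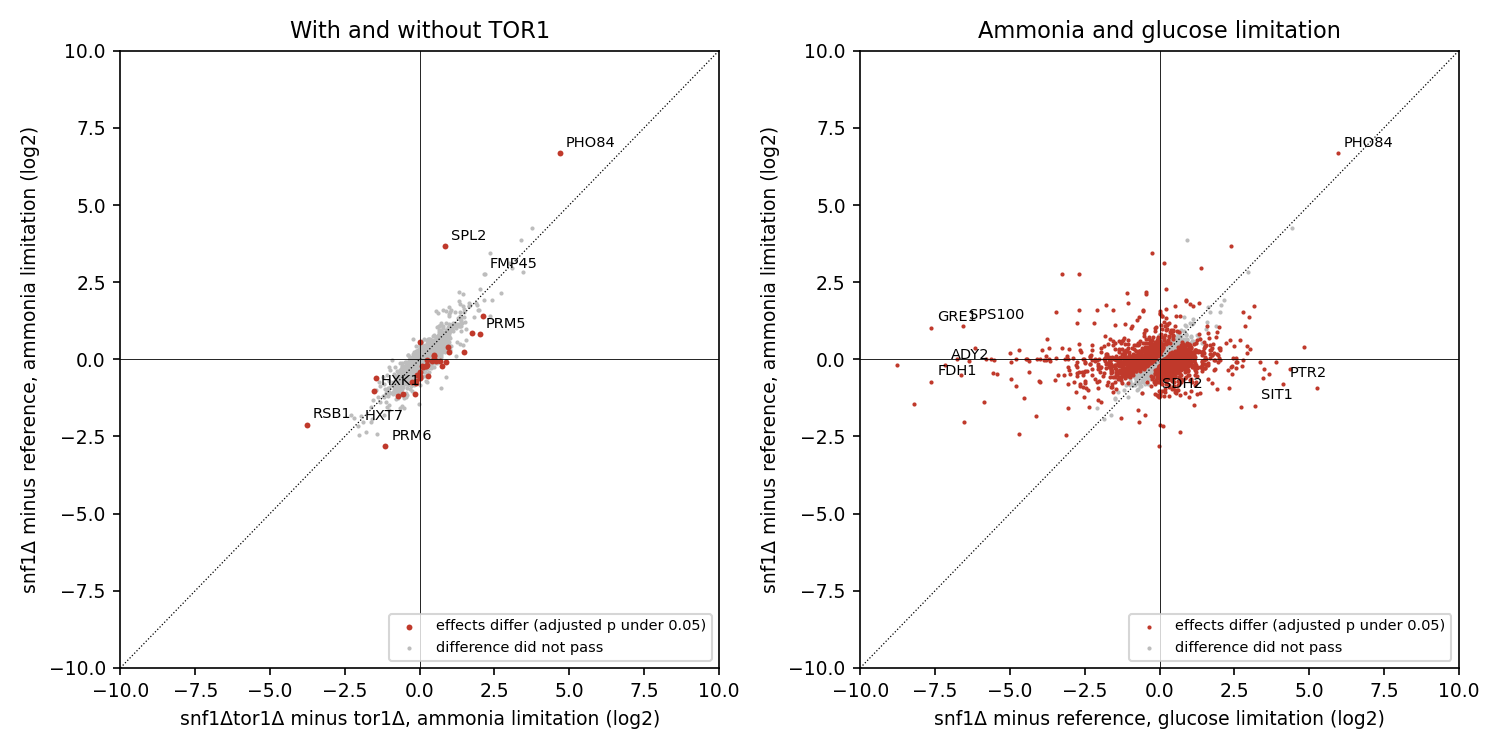
Each point is a gene with its snf1Δ minus reference change in N-lim (log2, y axis), against the change of snf1Δtor1Δ minus tor1Δ in N-lim (left, x axis) or of snf1Δ minus reference in C-lim (right, x axis), red where the 2 effects differ and grey where that test was not passed, with SNF1 left out. The left cloud follows the dotted line of equal effects (r = 0.873) and the right cloud does not (r = 0.280). Both r values are over 5089 genes and, unlike the plot, include SNF1, the deleted gene.

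In glucose limitation the same deletion had a different effect on many genes. The median change of all genes there was 0.10, and 2207 genes (40.5%) were higher and 1176 (21.6%) lower in snf1Δ. Of the genes higher in N-lim, 474 were also higher in C-lim (61.9% of the N-lim list and 21.5% of the C-lim list), and of those lower in N-lim 396 were also lower in C-lim (42.7% and 33.7%). Another 289 genes were lower in N-lim and higher in C-lim, and 100 the reverse. The effects differed at 2571 genes (47.2%), with the N-lim effect above the C-lim effect at 881 (16.2%) and below it at 1690 (31%), and with arrays centred on their medians at 1060 and 1398.

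Many phosphate genes rose in both media: PHO84 by 6.67 in N-lim and 5.96 in C-lim, and PHO5 at least 10.5-fold in N-lim and at least 11.9-fold in C-lim. In C-lim 6 of 7 transporter, 5 of 8 phosphatase and 7 of 8 polyphosphate genes rose, while 1, 2 and 1 fell. Among these 23 genes the N-lim effect was above the C-lim effect at 7 and below it at 6. Respiratory genes did not share a direction. The 39 had a median of -0.50 in N-lim and 0.18 in C-lim, and the N-lim effect was below the C-lim effect at 37 and above it at 1. COX5B changed by -0.73 in N-lim and 1.10 in C-lim, HAP4 by -1.0 and 0.57, and MSN4 by -1.10 and 1.35. In the folding list of the ER the median was 0.70 in N-lim and 0.22 in C-lim, and KAR2 rose by 1.00 and 0.24. Over all 147 genes of the 7 ER and secretory lists the gap was small, with medians of 0.23 in N-lim and 0.19 in C-lim. Among these 147 the N-lim effect was above the C-lim effect at 47 and below it at 22.

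Several of the steep N-lim changes were reversed or missing in C-lim. NQM1 changed by 2.77 in N-lim and -2.70 in C-lim, FMP45 by 2.77 and -3.25, and HXT2 by 2.16 and -1.10. HXT7 changed by -2.17 in N-lim and 0.10 in C-lim, and YET2 by 3.12 and 0.16. PRM6 changed by -2.82 in N-lim and was at the floor in both C-lim groups. Stress and alternative-carbon genes had smaller median effects in N-lim than in C-lim. The median of the Msn2 and Msn4 targets was -0.18 in N-lim and -1.56 in C-lim, with 38 of 44 effects higher and 1 lower in N-lim, and that of the Cat8 and Adr1 targets was -0.31 and -1.60. Iron uptake genes had a median of -0.18 in N-lim, with 4 of 23 lower and 0 higher (7 and 1 in the paired fit), and 1.07 in C-lim. The share lower in N-lim is near the 17% of all genes. SIT1, a siderophore transporter, read 4.57, 4.50 and 4.59 in snf1Δ and 6.06, 6.25 and 5.84 in the reference in N-lim, a fall of -1.50 (adjusted p = 0.00415), against a rise of 3.20 in C-lim.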

How the data were processed

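The deposited table holds log2 values of 5716 probe sets on 24 arrays. Per the submitters' processing notes, RMA and the affy package were used to make them. Their versions and the arrays that were normalized together are not given in the sources used. The platform table paired 5498 probe sets with 1 gene, and 218 are not in it and were not used. The brightest probe set was kept for 47 genes with several, which left 5449 genes, and 12 gene names were brought up to date with RefSeq (assembly R64). All 24 columns were matched to samples by title.

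A linear model with 8 group means was fitted to the 24 arrays with limma 3.58.1 (R 4.3.3), which left 16 residual and gave 1.71 prior degrees of freedom. P-values were adjusted by Benjamini-Hochberg over all genes within each contrast, with a threshold of 0.05. The contrasts were snf1Δ minus reference in N-lim, the same in C-lim, snf1Δtor1Δ minus tor1Δ in N-lim, and the differences of the last 2 from the first. The number of arrays limits the precision: the median SE of a change was 0.0817 log2 units. The script was tested on simulated data.

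Titles give equal numbers to snf1Δ and WT arrays. The deviations of equal-numbered arrays from their group means correlated with r = 0.174, 0.286 and 0.282 over 5089 genes. The labels do not say what equal numbers share, so a pairing is possible but not established. Fits with the number as a block were therefore run as alternatives to the reported unpaired fit. They used the 6 arrays (called the paired fit) and, added after the data were seen, these 6 within all 24. Other alternatives were the 6 arrays or 12 N-lim arrays alone, centring, quantile normalization, filters on dim and floor genes, moderation with trend, the mean of probe sets, and each array left out.

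The comparison, the 65 gene lists and the alternatives were chosen with earlier results of these data known, and the lists of the endoplasmic reticulum and secretion, cytosolic chaperones and respiratory regulators after their values were seen. List entries without a match (35) were left out. Named genes were the 15 largest rises and 15 largest falls without overlap, up to 8 called members by size in a list (all in lists of up to 10 members and in those of SNF1 factors, phosphate and hexose transport), up to 5 each way for the differences, and those said in the text to be chosen after their values were seen. Sequences were not analysed here.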

Additional observations from a re-analysis of the deposited data

Results flagged for a closer look

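The effect of deleting SNF1 differed between N-lim and C-lim at 2571 genes, and between cells without and with TOR1 in N-lim at 38 genes, each by a test of the difference itself in limma. The values below are fitted differences on the log2 scale, the N-lim effect minus the C-lim effect unless stated otherwise, and no explanation was tested. SPL2, STL1, PRM6, RSB1, YDL218W, ADY2, FDH1 and OPT2 had at least 1 group at the floor, so their differences are fitted values and not exact sizes.

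Several groups had differences mostly of 1 sign. The N-lim effect was below the C-lim effect for 4 of 4 succinate dehydrogenase genes, 9 of 9 bc1 genes and 9 of 9 cytochrome c oxidase genes. The same held for 15 of 17 ATP synthase genes, with 1 the other way, and for 10 of 13 TCA cycle genes, with 2 the other way. It also held for 62 of 68 mitochondrial ribosome genes, with 1 the other way. Of these 68, 62 were higher in snf1Δ in C-lim and 13 lower in N-lim. Among all genes the N-lim effect was below the C-lim effect at 31% and above it at 16.2%. All 9 genes of the a-specific list, RAM1 and STE14 included, had an N-lim effect below the C-lim effect. Of the 44 Msn2 and Msn4 stress targets 38 had an N-lim effect above the C-lim effect and 1 below it.

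Among the steepest N-lim rises, the difference was 0.72 for PHO84, 1.28 for SPL2, 3.70 for STL1, 2.96 for YET2 and 1.57 for ULI1. It was 6.02 for FMP45, 5.47 for NQM1, 2.07 for GIP1, 2.61 for DIA3, 3.26 for HXT2, 2.57 for MMP1 and 1.04 for DOG1. Among the steepest falls it was -2.82 for PRM6, -3.05 for MF(ALPHA)1, -2.28 for HXT7, -2.11 for RSB1, -1.32 for MAL32, -0.62 for GPH1, -1.32 for HXT4, -0.93 for MTH1 and -1.05 for HXK1. In GAC1 (0.69), ISF1 (2.26), AQY1 (4.51) and UIP4 (2.30) the N-lim fall was the smaller.

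The largest positive fitted differences were those of GRE1 (8.66), YDL218W (8.59), SPS100 (7.66), the acetate transporter gene ADY2 (6.99) and the formate dehydrogenase gene FDH1 (6.91). In these genes the C-lim falls were between -8.78 and -6.57. The largest negative fitted ones were those of YGR035C (-6.21), PTR2 (-4.91), SIT1 (-4.70), EEB1 (-4.67), an ester synthase gene, and YJL213W (-4.43). OPT2 had -0.84, AFB1, an a-pheromone-blocking protein, -2.69, and YPL113C 1.59.

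Without TOR1 minus with TOR1, in N-lim, the SNF1 effect differed by -2.83 in SPL2, -1.99 in PHO84, -1.66 in RSB1, -0.83 in OPT2 and -0.47 in HXK1. It differed by 1.66 in PRM6, 1.22 in YPL113C, 1.19 in PRM5, 0.98 in AFB1 and 0.97 in PRM3, a gene of nuclear fusion in mating.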

How the results depend on the processing

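No named change that passed turned its direction under an alternative run, while 32 named genes that did not pass had values on both sides of 0. Genes higher and lower in snf1Δ numbered 766 and 928 in the reported fit, 957 and 1096 with only the 6 arrays, 964 and 1092 with the replicate block on them, 745 and 885 with the replicate block among all 24 arrays (an alternative chosen after seeing the data), 851 and 968 with the 12 N-lim arrays, 843 and 830 with arrays centred on their medians, and 567 to 678 and 742 to 803 with 1 array left out. Genes past 2-fold, 74 and 55, were 39 and 32 without dim genes and 70 to 79 and 55 to 61 with 1 array left out. Differences between limitations, 881 positive and 1690 negative, were 812 to 860 and 1551 to 1631 with 1 array left out. Differences between cells without and with TOR1, 32 positive and 6 negative, were 20 positive with the replicate block among all 24 arrays, 10 and 11 positive after centring and after quantile normalization, 10 negative with the 12 N-lim arrays, 2 and 2 without dim genes, and 11 to 32 and 4 to 7 with 1 array left out. The cause was not tested. Of 516 named genes, 19 lost and 18 gained their call with the 6 arrays alone, 25 and 22 with the replicate block on those 6 arrays, and 10 and 0 with the block among all 24 arrays, which changed no list count of 5 or more by over 1.5 times. Leaving out 1 array cost 29 to 61 named genes their call. Of 403 called named genes 314 kept it whichever array was left out. All folds against a floor are lower bounds, and 13 called genes lay at the floor in both groups.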

Other observations

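Lipid and vitamin genes showed smaller movements. Of 26 ergosterol genes 7 rose and 1 fell (0 without any 1 of the arrays except WT array 11, and 3 in the paired fit on the 6 arrays with the number as a block) in snf1Δ, led by ERG4, sterol C-24 reductase (0.54), and ERG2, C-8 sterol isomerase (0.38), which read 11.84, 11.83 and 11.82 in snf1Δ and 11.44, 11.48 and 11.43 in the reference. Of 16 fatty acid genes 3 rose and 6 fell. FAS1 and FAS2, the subunits of fatty acid synthase, fell by -0.24 and -0.19, and the acyl-CoA synthetase gene FAA1 by -0.43. Of 23 phospholipid genes 3 rose and 7 fell, among them OPI1, the repressor of inositol-sensitive genes (-0.47), and CHO1, phosphatidylserine synthase (-0.39). THI4, which makes the thiazole ring of thiamine, read 8.37, 8.45 and 8.36 in snf1Δ and 6.69, 6.60 and 6.60 in the reference, a rise of 1.76 ± 0.17 (limma adjusted p = 2.55e-07), in a list of 16 thiamine and pyridoxine genes of which 3 rose and 4 fell (2 without snf1Δ array 10, snf1Δ array 11 or WT array 9).

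Of 10 histone genes 4 fell (2 in the paired fit) and 0 rose, among them the linker histone gene HHO1 (-0.31) and HTA1 (-0.22), with no overlap between the groups for either. HTZ1 (-0.20) and CSE4 (-0.18) were the other 2. The call of HTZ1 was lost without snf1Δ array 9 or WT array 11, and in the paired fit, and that of CSE4 without snf1Δ array 10 or 11 or WT array 10 or 11, and in the paired fit. Of 6 marker genes of strain construction, LYS2 rose by 0.26 (adjusted p = 0.0602 without WT array 11), and ADE2, HIS3, LEU2, MET17 and URA3 did not pass, with changes between -0.10 and 0.17. Of 6 sporulation markers 2 rose, IME2 (adjusted p = 0.00144) and SPO11 (0.00588), and 1 fell, NDT80 (-0.38, adjusted p = 0.0193). The call of NDT80 was lost without snf1Δ array 10 or 11 or WT array 11. IME1 (adjusted p = 0.234, or 0.0306 in the paired fit), SPS4 (0.801) and SPR3 (0.104, or 0.0306 without WT array 11) did not pass. IME1 and IME2 were at the floor in both groups, so the rise of IME2 has no exact size.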
